A study of Mus musculus with 4 samples.

Results

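The complement and coagulation factors are the plasma enzymes, cofactors and inhibitors that the liver secretes for innate defence and for blood clotting. Of 41 such genes, 38 were found in the deposited signals, 18 of complement and 20 of coagulation, among 12393 named genes. A gene counted where at least 1 probe set, the group of probes that reads a transcript, carried its symbol and no other, which gave 50 of 22626 probe sets. C3, C4b and Cpb2 had no such probe set and were not analysed here. A C4 probe set was left out because it is annotated to both C4a and C4b.

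The signals came from liver of adult male C57BL6 mice, hybridised to Affymetrix Mouse Expression 430A arrays. All mice received an adenovirus, which carried green fluorescent protein (GFP) in the control group and mouse lipin 1beta in the other, and tissue was taken on day 6. Each group has 2 arrays, and all mice therefore carried a viral vector. The promoter in the vector is not given in the sources used here, and nothing says whether a group's arrays stand for different mice, so p-values reflect only how these samples scatter, and that scatter may be technical. The labels give polyA RNA for lipin replicate 2 and total RNA for the other arrays. The comparison asks which liver transcripts differ when lipin 1, a phosphatidate phosphatase and nuclear coactivator, is overexpressed.

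Complement is a cascade of proteases that marks and lyses microbes. C1q starts its classical pathway, mannose-binding lectins start the lectin pathway, factor B amplifies the alternative pathway, and the terminal components assemble into a membrane pore. Coagulation factors are proteases that activate each other in sequence until thrombin turns fibrinogen into fibrin, while antithrombin, protein C and other inhibitors hold the cascade back and plasmin dissolves the clot. Hepatocytes make nearly all of these proteins, under liver factors such as HNF1, HNF4 and C/EBP, and several are acute phase proteins driven by interleukin-6. C1q is the exception, since in liver it comes mainly from macrophages.

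The 3 fibrinogen genes are neighbours on mouse chromosome 3, encode the subunits of a single protein and lay on the same side in this comparison, so their upstream sequences are shown. They are the 250 bases before each start site, from RefSeq (GRCm38.p6): Fga at chr3:83025903-83026152 on the plus strand, Fgb at chr3:83049864-83050113 on the minus strand and Fgg at chr3:83007474-83007723 on the plus strand. Capitals mark matches, on either strand, to GTTAAT, the core of the HNF1 site, to TTGCNNAA, a C/EBP site, and to CTGGGAA, a core of the interleukin-6 response element.
Fga: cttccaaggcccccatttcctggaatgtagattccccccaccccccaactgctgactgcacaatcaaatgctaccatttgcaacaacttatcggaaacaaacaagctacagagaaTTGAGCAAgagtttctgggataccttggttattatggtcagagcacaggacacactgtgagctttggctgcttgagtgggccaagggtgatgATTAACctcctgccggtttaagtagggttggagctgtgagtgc
Fgb: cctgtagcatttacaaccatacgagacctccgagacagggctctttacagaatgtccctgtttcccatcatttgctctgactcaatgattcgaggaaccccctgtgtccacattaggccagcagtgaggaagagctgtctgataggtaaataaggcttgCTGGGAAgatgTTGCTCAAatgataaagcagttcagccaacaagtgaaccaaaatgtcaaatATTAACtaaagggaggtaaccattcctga
Fgg: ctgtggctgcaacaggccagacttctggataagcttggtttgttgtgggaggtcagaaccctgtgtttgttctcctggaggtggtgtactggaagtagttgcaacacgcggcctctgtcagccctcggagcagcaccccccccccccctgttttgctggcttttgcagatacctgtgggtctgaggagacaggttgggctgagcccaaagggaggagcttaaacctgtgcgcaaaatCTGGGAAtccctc

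Fga and Fgb each held a GTTAAT match, 43 to 38 and 29 to 24 bases before the start, and a TTGCNNAA match, 135 to 128 and 80 to 73 bases before it. CTGGGAA stood 91 to 85 bases before the start of Fgb and 13 to 7 bases before that of Fgg. Over 32851 promoters of this length, 6.43% held GTTAAT, 9.56% TTGCNNAA and 9.10% CTGGGAA. Promoters of 31 listed genes were in the RefSeq table, 32 sequences in all, of which 25% held GTTAAT, 21.9% TTGCNNAA and 12.5% CTGGGAA. The genes with GTTAAT were C4bp, C8a, C8b, F13b, Fga, Fgb, Hc and Vtn. They were 4 of the 13 complement and 4 of the 18 coagulation genes with a promoter in the RefSeq table. The full HNF1 palindrome and the HNF4 element CAAAGTCCA were in none of them, against 0.009% and 0.384% of all promoters, and TATAAA was in 9.38% against 12.4%. These matches describe letters in a window and say nothing of binding.

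Signals are MAS5 intensities in arbitrary units, made and scaled by the authors, with a trimmed mean between 1499.93 and 1500.22 on the arrays. Only lipin replicate 2 exceeded both GFP arrays in Lpin1 itself, at 11087 on the brighter probe set against 7082 and 4632 in GFP and 3854 in lipin replicate 1, so the direction of every difference rests on the labels. GFP replicate 2 was the least like the others (average Pearson r 0.731, the rest 0.781 to 0.793) and had the highest actin signal at the 3' end relative to the 5' end, a ratio of 4.22 against 1.77 to 2.86. All 8 hepatocyte markers measured were bright enough to test, Alb for instance between 571407 and 1069105. Centred on each gene's mean over the arrays, their median log2 signal was -0.68 and 0.42 for the GFP replicates 1 and 2, and -0.15 and 0.49 for the lipin replicates. In bulk liver, fewer cells of a type and less RNA per cell cannot be told apart.

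No complement or coagulation gene passed the test. The lowest adjusted p among the 38 was 0.962 (limma over 13576 probe sets, Benjamini-Hochberg), and 0% of the 8493 genes tested passed. At an unadjusted p under 0.05, 1 member was higher and 1 lower in the arrays labelled lipin, where 2.66% of all genes were higher and 1.97% lower. All 38 members passed the filter on dim signals, and a gene is given by its brightest tested probe set. Differences are of log2 signal, lipin minus GFP, with limma's standard error over 2 arrays per group.

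As a group the members lay slightly above the other genes in the arrays labelled lipin. The median difference was 0.24 over the 38 members, or 1.18-fold, against 0.00 over all genes, and 26 members (68.4%) lay above 0 against 50.1% of all genes. The groups did not overlap in 13 members, 11 (28.9%) with lipin on the higher side and 2 (5.26%) with lipin on the lower, against 17.3% and 16% of all genes. Without GFP replicate 1 the median was 0.06 and 20 members (52.6%) lay above 0, against 44.6% of all genes, whose own median was then -0.12. Without lipin replicate 2 the median was 0.11, hardly above the 0.08 over all genes. In that setting 23 members (60.5%) lay above 0, against 54.7% of all genes. Leaving out GFP replicate 2 instead gave a median of 0.31 (all genes 0.0045), and leaving out lipin replicate 1 gave 0.34 (all genes 0.02). Separation counts with 3 arrays are larger by construction. With GFP replicate 1 left out, 15 members were higher (39.5%, all genes 33.9%) and 13 lower (34.2%, all genes 39.9%). The members were then nearly even in count, while all genes leaned to the lower side. With GFP replicate 2 left out, 25 members were higher (65.8%, all genes 36.2%) and 5 lower (13.2%, all genes 30%). With lipin replicate 1 left out, these were 19 (50%, all genes 30.1%) and 4 (10.5%, all genes 32.7%). With lipin replicate 2 left out, they were 14 (36.8%, all genes 33.3%) and 7 (18.4%, all genes 30.5%). By their median the hepatocyte markers were lowest in GFP replicate 1 and highest in lipin replicate 2. The part of hepatocyte content in it was not tested.

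Complement and coagulation had nearly the same median difference, and neither cascade had a gene that passed the test. The median difference was 0.22 over the 18 complement genes and 0.27 over the 20 coagulation genes, a gap of -0.05, which was -0.17 when GFP replicate 2 was left out and 0.07 when GFP replicate 1 was. Without GFP replicate 1 the coagulation median was -0.01 and the complement median 0.06, against -0.12 over all genes. Without lipin replicate 2 the coagulation and complement medians were 0.11 and 0.07, against 0.08 over all genes. Coagulation had 9 genes (45%) higher without overlap in the arrays labelled lipin and 2 (10%) lower. In complement these numbers were 2 of 18 (11.1%) and 0, against the 17.3% and 16% of all genes. With GFP replicate 1 left out, coagulation had 9 higher (45%) and 7 lower (35%), and complement 6 (33.3%) and 6 (33.3%). Of all genes, 33.9% were then higher and 39.9% lower. Whether the cascades differ in these shares was not tested. The GFP arrays differed from each other by a median of 0.57 in complement and 0.18 in coagulation, regardless of sign, and by 0.68 over all genes. The arrays labelled lipin differed by nearly the same in both, 0.41 and 0.39, and by 0.53 over all genes. The sign of the difference held without each array in turn for 12 of 20 coagulation genes and 5 of 18 complement genes. A gene without overlap keeps its sign by construction, so these counts largely repeat those without overlap. No share over all genes stands beside them.

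**Figure D1:**
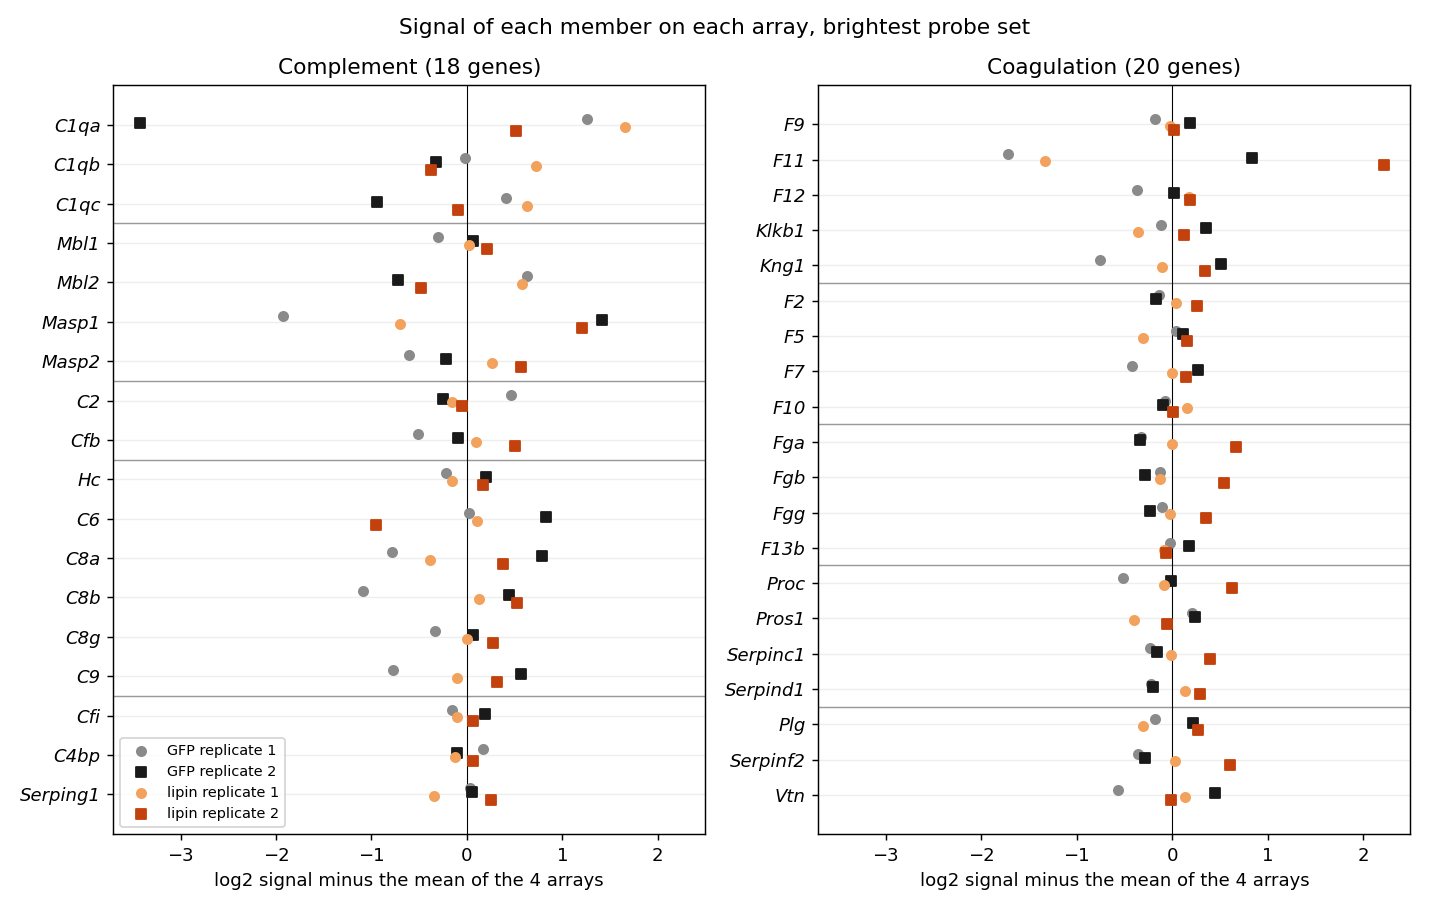
Log2 signal of each of the 38 members on each of the 4 arrays, as a distance from the gene's mean over the arrays, with signals under the floor raised to it; grey lines part the roles. The complement genes C1qa, Masp1 and C6 and the coagulation gene F11 spread widely, while both GFP points of Fga, Serpind1 and Serpinf2 lie together to the left of both lipin points.

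**Figure D2:**
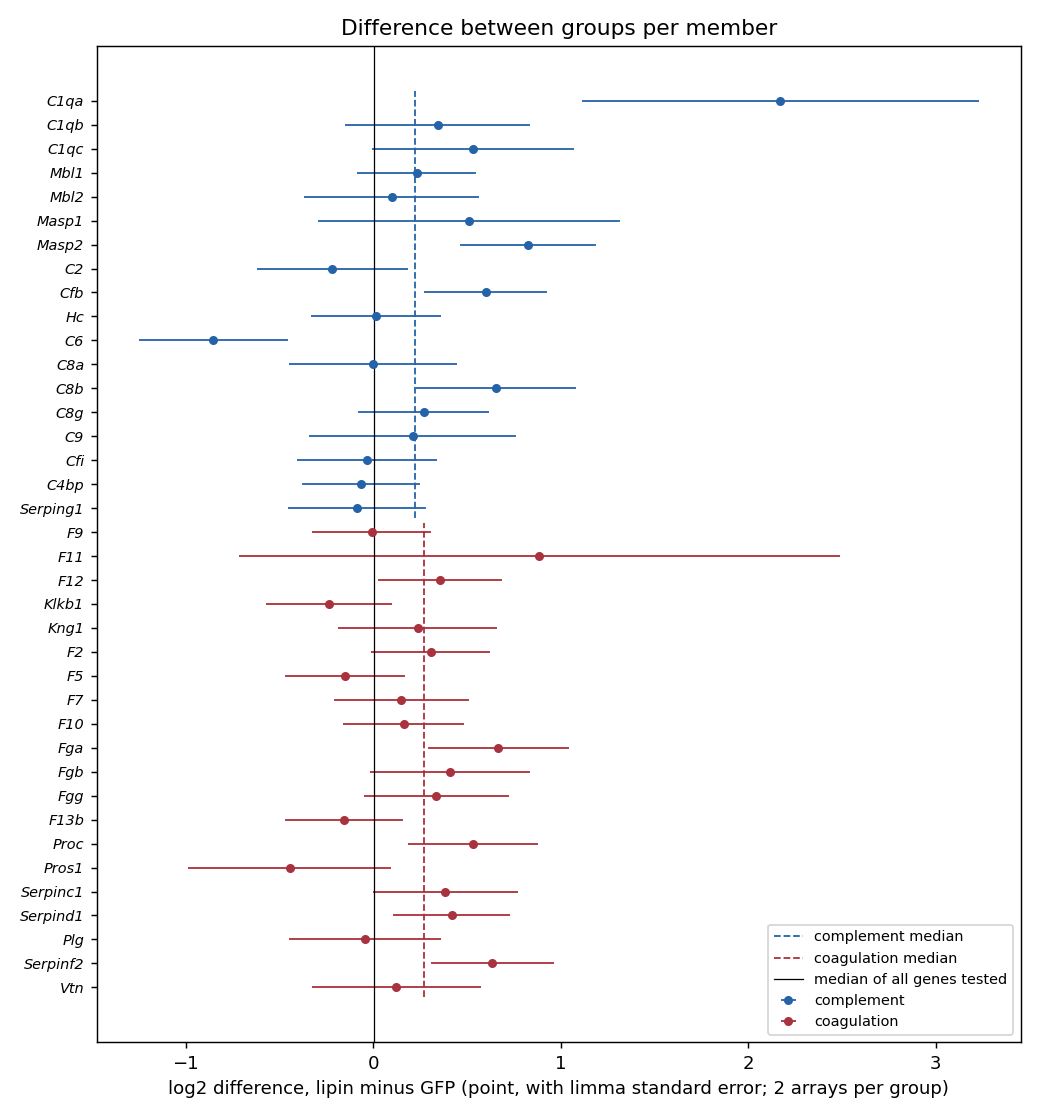
Log2 difference between lipin and GFP for each member, as a point with limma's standard error (2 arrays per group), the median of each cascade as a broken line and that of all genes as a solid line. The medians, 0.22 for complement and 0.27 for coagulation, lie within the standard error of most genes, and C1qa at 2.17 and C6 at -0.85 are the ends of the range.

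The spread within the groups ran the same way in most members. GFP replicate 2 exceeded GFP replicate 1 in 27 of the 38, against 55.3% of all genes, and lipin replicate 2 exceeded lipin replicate 1 in 31, against 47.3%. Replicate 2 was the higher array in both groups for 25 members, 11 of complement and 14 of coagulation, against 27.5% of all genes. It was the lower in both for 5, against 24.8%, namely C1qa, C1qb, C1qc, Mbl2 and F10. All 8 hepatocyte markers and 11 of 14 other secreted hepatocyte proteins also had replicate 2 higher in both groups. Nothing in the labels says that a replicate number marks a shared day or animal, and the part of hepatocyte content was not tested.

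**Figure D3:**
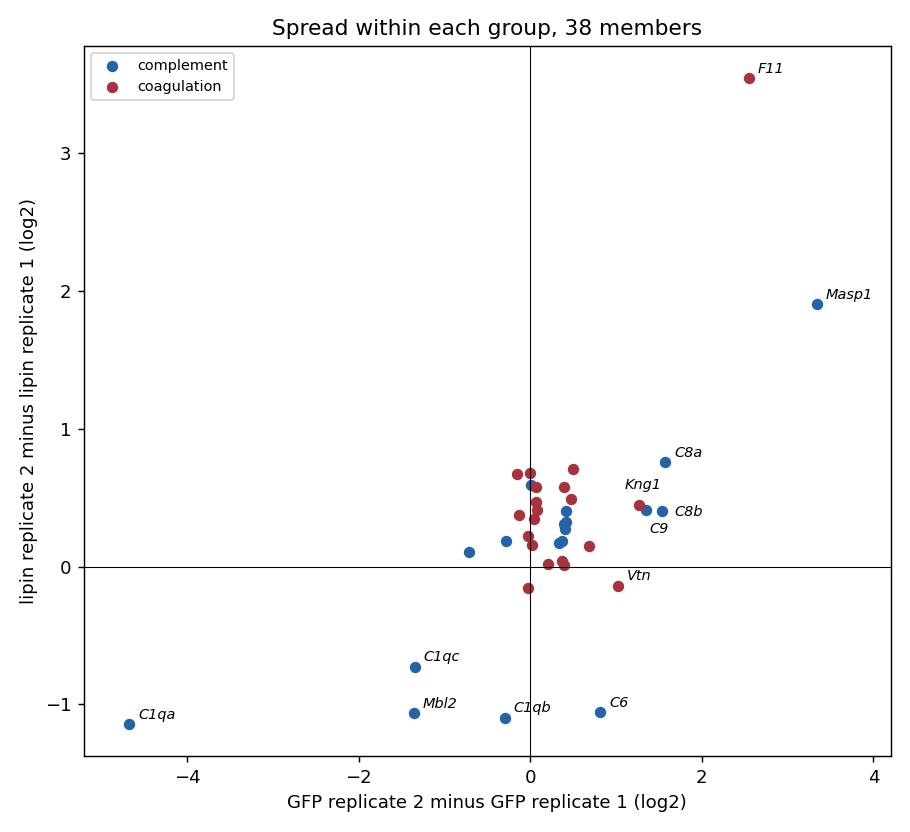
Log2 difference between the arrays of the GFP group (horizontal axis) and of the lipin group (vertical axis) for the 38 members. Of these, 25 lie to the upper right, and 5 lie to the lower left, namely C1qa, C1qb, C1qc, Mbl2 and, close to 0, F10.

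The C1q genes, whose chains A, B and C form the recognition unit of the classical pathway, did not separate the groups. C1qa, C1qc and the dimmer C1qb probe sets read lowest in GFP replicate 2, and the brightest C1qb probe set in lipin replicate 2. C1qa read 3056 and 98 on the GFP arrays, and 4039 and 1831 on the lipin arrays, replicate 1 first, as in all pairs of values here. Its difference of 2.17 ± 1.06 rests on the GFP replicate 2 signal, which lay under the floor of 119.5, and it was -0.17 without that array. C1qc read 2716 and 1067 in GFP, and 3161 and 1912 in lipin, a difference of 0.53 ± 0.54 that was -0.14 without GFP replicate 2. In both genes the order of the arrays was lipin replicate 1, GFP replicate 1, lipin replicate 2, GFP replicate 2, with the groups interleaved.

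C1qb was read by 3 probe sets that gave different sizes. The brightest read 2141 and 1743 in GFP, and 3583 and 1678 in lipin, a difference of 0.34 ± 0.49. The second read 1237 and 145 in GFP, and 2034 and 1204 in lipin, a difference of 1.89 ± 0.96. The last read 1583 and 412 in GFP, and 1402 and 1258 in lipin, with a difference of 0.72 ± 0.74. All of these had GFP replicate 1 above GFP replicate 2, by little on the brightest probe set and by much on the others.

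Macrophage markers also moved between the arrays. The 9 tested Kupffer cell and macrophage markers had medians, centred as above, of 0.48 and -0.18 in GFP, and 0.25 and -0.20 in lipin. Their median difference was -0.18, with 3 above 0 and 6 below. Without overlap, 1 (11.1%) was higher in lipin and 0 lower, against 17.3% and 16% of all genes. Replicate 2 was the lower array in both groups for 6 of the 9 markers, against 24.8% of all genes. It was the higher in both for 3, against 27.5%. Cd5l and Clec4f, given below, are both from the 3 above 0 and were picked after their values were seen. The signals of all 11 measured markers summed to 63417 and 36854 in GFP, and to 55931 and 37596 in lipin. Cd5l, a secreted macrophage protein, read 11853 and 3701 in GFP, and 12503 and 7414 in lipin, the same order of arrays as C1qa. Clec4f, a marker of resident Kupffer cells and the 1 without overlap, ran otherwise, at 210 and 1245 in GFP and 1413 and 2136 in lipin. Marco was among the 2 markers too dim to test. The part of macrophage content in the C1q values was not tested.

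**Figure D4:**
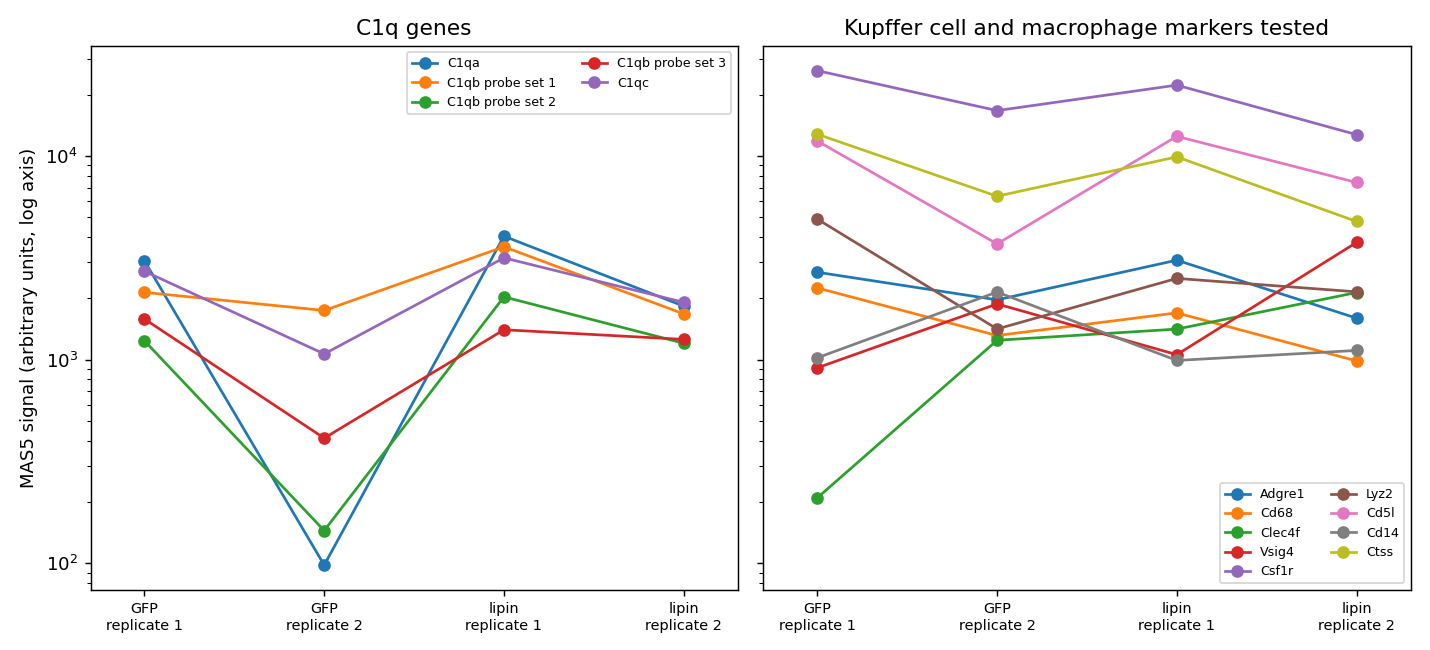
MAS5 signal, on a log axis, of the 5 probe sets of the C1q genes (left) and of the 9 tested Kupffer cell and macrophage markers (right) on each array; lines join the values of a probe set and imply no order of the arrays. C1qa falls to 98 on GFP replicate 2, where Cd5l has its lowest signal too, while Clec4f is lowest on GFP replicate 1.

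In the lectin pathway, Masp2, the protease that cleaves C4 and C2, had the smallest p of any member, and its probe sets disagreed. The brightest read 3096 and 4078 in GFP, and 5663 and 7011 in lipin, so both arrays labelled lipin lay above both GFP arrays. The difference was 0.83 ± 0.36, or 1.77-fold (limma unadjusted p = 0.0383, adjusted p = 0.962), and it ran from 0.63 to 1.03 without each array in turn. The second Masp2 probe set read 2269 and 4614 in GFP, and 2685 and 2840 in lipin, a difference of -0.23 ± 0.44 with overlapping groups. Masp2 also gives rise to a short splice form without the protease domain, and which form each probe set reads is not known here.

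Masp1, the related protease, was read by 5 probe sets with differences on both sides of 0. The brightest read 932 and 9440 in GFP, and 2186 and 8176 in lipin, and its difference of 0.51 ± 0.80 turned to -1.16 without GFP replicate 1. Here both arrays numbered 2 were several times above both arrays numbered 1, so the spread within each group exceeded the difference between them. A dim probe set read 210 and 236 in GFP, and 1013 and 932 in lipin, a difference of 2.13 ± 1.19. The other tested probe sets gave 0.22 ± 0.59 and -0.08 ± 0.54, and the dimmest was not tested.

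Mbl1 and Mbl2, the mannose-binding lectins that recognise microbial sugars, had differences of 0.23 ± 0.32 and 0.10 ± 0.47. Mbl1 read 11020 and 14210 in GFP, and 13777 and 15684 in lipin. Mbl2 read 76415 and 29884 in GFP, and 73922 and 35362 in lipin, so that it was high on both arrays numbered 1 and low on both numbered 2, unlike the 25 members with replicate 2 higher in both groups. Its sign turned without GFP replicate 2 (-0.58) and without lipin replicate 1 (-0.43).

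Of the convertase components, Cfb, or factor B, which provides the protease of the alternative pathway, read 13792 and 18486 in GFP, and 21046 and 27855 in lipin. The groups did not overlap, and the difference was 0.60 ± 0.33, or 1.52-fold (limma adjusted p = 0.962), between 0.39 and 0.81 without each array. Its neighbour on chromosome 17, C2, which provides the protease of the classical and lectin pathways, read 4786 and 2925 in GFP, and 3104 and 3337 in lipin, a difference of -0.22 ± 0.40. GFP replicate 1 was high and the other arrays lay together.

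The terminal pathway genes, which encode the parts of the lytic pore, had GFP arrays that differed by a median of 1.08 regardless of sign, second to the 1.35 of C1q among the roles. C6 had the lowest difference of any member, -0.85 ± 0.40 (limma unadjusted p = 0.0491, adjusted p = 0.962), with 24265 and 42625 in GFP, and 25668 and 12359 in lipin. Lipin replicate 1 lay inside the GFP range, so the groups overlapped, and the difference was -0.33 without lipin replicate 2 and -0.45 without GFP replicate 2.

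C8a and C8b, neighbouring genes on chromosome 4 that encode the alpha and beta chains of C8, differed between the GFP arrays in the same direction and by about as much. C8a read 12947 and 38516 in GFP, and 17120 and 28997 in lipin, a difference of 0.00 ± 0.45. C8b read 5894 and 17055 in GFP, and 13713 and 18154 in lipin, a difference of 0.65 ± 0.43 that was -0.11 without GFP replicate 1. The GFP arrays enclosed both arrays labelled lipin in C8a, and lipin replicate 1 in C8b. C8g, the lipocalin-like gamma chain, read 37298 and 49261 in GFP, and 47025 and 56833 in lipin, with a difference of 0.27 ± 0.35.

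C9, which polymerises into the pore, read 129127 and 328253 in GFP, and 206231 and 274763 in lipin, a difference of 0.21 ± 0.55. Hc, the gene of C5, from which the pore assembles, read 5549 and 7392 in GFP, and 5773 and 7246 in lipin, a difference of 0.01 ± 0.34 that was -0.0005 after quantile normalization. For C9 and Hc the arrays labelled lipin lay inside the GFP range.

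The complement regulators differed little in mean. Cfi, the protease that inactivates C3b and C4b, read 65884 and 83160 in GFP, and 68150 and 76742 in lipin (-0.03 ± 0.37). C4bp, its cofactor, read 16700 and 13762 in GFP, and 13587 and 15484 in lipin (-0.06 ± 0.31). Serping1, the C1 inhibitor, which also blocks contact proteases, read 63155 and 63791 in GFP, and 48631 and 73432 in lipin (-0.09 ± 0.37). In all of these the standard error was several times the difference, so a change in either direction of about the size of that error was not detectable with these arrays. Larger changes could be missed too, since Masp2 at 0.83 ± 0.36 did not pass the test.

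Among the contact and intrinsic factors, F12, the contact protease factor XII, had groups that did not overlap. It read 5906 and 7748 in GFP, and 8614 and 8677 in lipin, a difference of 0.35 ± 0.33. F9, or factor IX, read 13194 and 17103 in GFP, and 14715 and 15167 in lipin, a difference of -0.01 ± 0.32 that was above 0 after median centring. Klkb1, plasma prekallikrein, read 10523 and 14660 in GFP, and 8903 and 12512 in lipin (-0.23 ± 0.34).

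Kng1, which encodes the kininogens, read 31092 and 74891 in GFP, and 48713 and 66478 in lipin (0.24 ± 0.42), with 0.07 ± 0.39 on its second probe set. Kng2, a close copy, may share probes with it. F11, or factor XI, was dim and read 72.8 and 699.7 in GFP, and 156 and 1824 in lipin, a difference of 0.89 ± 1.60 with GFP replicate 1 under the floor. Replicate 2 was the higher array in both groups for each of these 5 genes, and the groups overlapped in all but F12.

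Of the extrinsic and common pathway, F2, the gene of prothrombin, read 24018 and 23524 in GFP, and 27221 and 31752 in lipin, a difference of 0.31 ± 0.32 with groups that did not overlap. F7, or factor VII, which starts coagulation with tissue factor, read 4265 and 6872 in GFP, and 5706 and 6330 in lipin (0.15 ± 0.36). F5, the cofactor in the complex that cleaves prothrombin, had probe sets on either side of 0. Its brighter probe set read 16806 and 17636 in GFP, and 13189 and 18251 in lipin (-0.15 ± 0.32), and its dimmer read 11702 and 11170 in GFP, and 8742 and 21212 in lipin (0.25 ± 0.39). On both, lipin replicate 1 was the lowest array and lipin replicate 2 the highest.

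F10, or factor X, likewise had 3 probe sets that disagreed. The brightest read 7473 and 7355 in GFP, and 8751 and 7876 in lipin (0.16 ± 0.32), and the dimmest 1329 and 938 in GFP, and 2187 and 1793 in lipin (0.83 ± 0.54), both without overlap. The remaining one read 3313 and 5285 in GFP, and 3471 and 3956 in lipin (-0.18 ± 0.39).

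**Figure D5:**
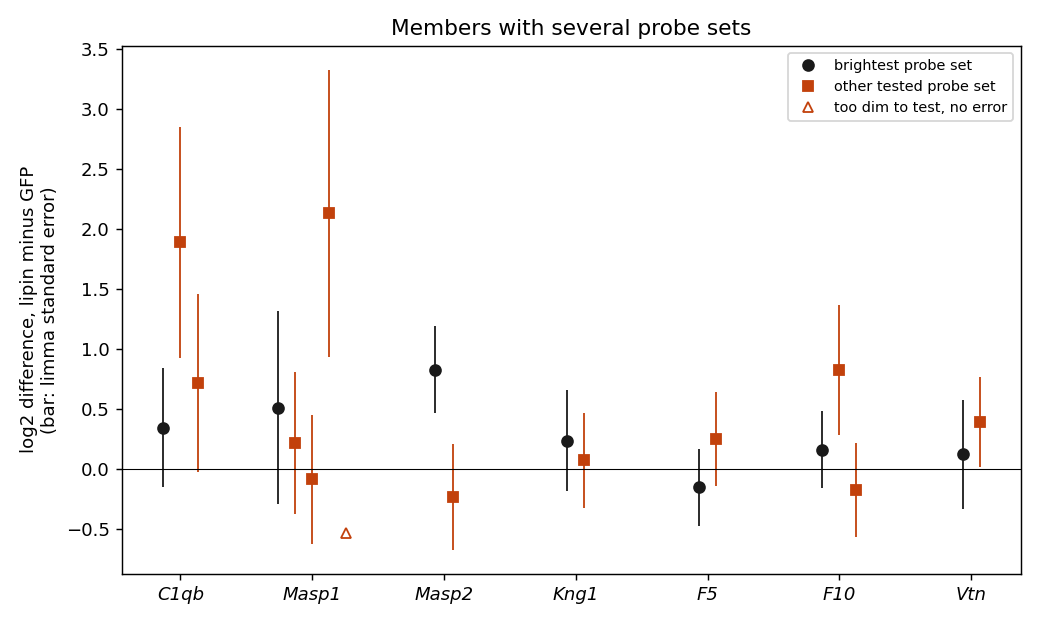
Log2 difference between lipin and GFP for each probe set of the 7 members that have several, with limma's standard error for those tested (2 arrays per group). Masp1, Masp2, F5 and F10 have probe sets on both sides of 0, while all those of C1qb, Kng1 and Vtn lie above it.

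The 3 fibrinogen genes, whose upstream sequences are given above, were each higher in lipin without overlap, where 17.3% of all genes were. The GFP arrays were close in each. Fga, the alpha chain, read 50051 and 49794 in GFP, and 62689 and 100261 in lipin, a difference of 0.67 ± 0.38, or 1.59-fold. Fgb, the beta chain, read 106536 and 96005 in GFP, and 106688 and 169672 in lipin (0.41 ± 0.43, 1.33-fold). Fgg, the gamma chain, read 80437 and 73734 in GFP, and 85348 and 110627 in lipin (0.34 ± 0.39, 1.26-fold).

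In each fibrinogen gene the high value was that of lipin replicate 2, the array labelled polyA RNA, and in Fgb lipin replicate 1 hardly exceeded GFP replicate 1. Without lipin replicate 2 the differences were 0.33, 0.08 and 0.15 for Fga, Fgb and Fgg, and without lipin replicate 1 they were 1.01, 0.75 and 0.52. The limma adjusted p was 0.962 for each. F13b, the carrier subunit of the transglutaminase that crosslinks fibrin, lay the other way, with 25734 and 29596 in GFP, and 24620 and 24934 in lipin (-0.16 ± 0.32).

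Of the 4 anticoagulants, 3 lay above 0 and 2 were higher without overlap, where 50.1% and 17.3% of all genes did so, and 0 passed the test. Serpind1, heparin cofactor II, an inhibitor of thrombin, read 11559 and 11707 in GFP, and 14721 and 16402 in lipin, a difference of 0.42 ± 0.31, or 1.34-fold, that kept between 0.34 and 0.50 without each array. Serpinc1, antithrombin, read 73388 and 77212 in GFP, and 85307 and 113263 in lipin (0.38 ± 0.39, 1.31-fold). Neither gene's groups overlapped, and in both the GFP arrays were close to each other.

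Proc, protein C, which inactivates factors V and VIII, read 11912 and 16842 in GFP, and 16005 and 26219 in lipin, a difference of 0.53 ± 0.35 with overlapping groups. Pros1, the gene of protein S, the cofactor of protein C, lay the other way without overlap, with 1676 and 1723 in GFP, and 1107 and 1406 in lipin (-0.45 ± 0.54).

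In fibrinolysis, Serpinf2, the inhibitor of plasmin, had the smallest p among the coagulation genes and read 13080 and 13740 in GFP, and 17046 and 25452 in lipin. Its difference was 0.64 ± 0.33, or 1.55-fold (limma adjusted p = 0.962), and it was 0.35 without lipin replicate 2 and 0.92 without lipin replicate 1. Plg, the gene of plasminogen itself, read 79999.6 and 105344 in GFP, and 72972 and 108747 in lipin (-0.04 ± 0.40), so that both arrays numbered 2 were above both numbered 1.

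Vtn, or vitronectin, which binds both the terminal complement complex and inhibitors of clotting and fibrinolysis, gave 0.12 ± 0.45 on the brighter probe set, with 79075 and 160317 in GFP, and 128576 and 116848 in lipin. Its dimmer probe set read 36381 and 58818 in GFP, and 70435 and 52222 in lipin (0.39 ± 0.38). On both, GFP replicate 1 was the lowest array.

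Of 51 other genes of the cascades, their receptors and their cell-surface regulators, 34 were measured and 27 tested. At an adjusted p under 0.05 (limma) 0 passed. At an unadjusted p under 0.05 (limma), 1 of the 27 was higher and 1 lower, where 2.66% of all genes were higher and 1.97% lower. Their median difference was 0.11, with 6 (22.2%) higher and 3 (11.1%) lower without overlap, against 17.3% and 16% of all genes. The higher was Cfp, or properdin, which stabilises the alternative pathway convertase and is made by leukocytes, with 487 and 212 in GFP, and 2775 and 899 in lipin (2.30 ± 0.92). The lower was F2r, the thrombin receptor PAR1, with 4066 and 5971 in GFP, and 2787 and 1949 in lipin (-1.08 ± 0.41). The limma adjusted p was 0.962 for both.

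Clotting factors II, VII, IX and X and proteins C and S need vitamin K for their gamma-carboxyglutamate residues. Vkorc1, the reductase that recycles vitamin K, read 17210 and 16454 in GFP, and 25511 and 30810 in lipin, a difference of 0.74 ± 0.32 with groups apart (limma adjusted p = 0.962). Ggcx, the carboxylase, read 998 and 1235 in GFP, and 1382 and 837 in lipin (-0.05 ± 0.64).

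Of 14 liver and inflammatory regulators of these genes, 11 were tested, with a median of 0.33, 6 higher (54.5%) and 1 lower (9.09%) without overlap, against 17.3% and 16% of all genes, and 0 past an adjusted p of 0.05 (limma). Hnf4a read 17791 and 8054 in GFP, and 22537 and 23579 in lipin (0.95 ± 0.37, or 0.37 without GFP replicate 2), and Cebpa 11483 and 8651 in GFP, and 14439 and 19566 in lipin (0.75 ± 0.33). The lower was Cebpd, an inflammation-induced C/EBP factor, with 1276 and 1521 in GFP, and 753 and 94.9 in lipin. Its difference of -2.22 ± 1.03 (limma adjusted p = 0.962) had the lowest signal under the floor and was -0.89 without lipin replicate 2, and its other probe set was too dim to test. The dimmer Hnf4a probe sets gave 0.37, -0.03 and -0.12, all with overlapping groups. Stat3, which carries the interleukin-6 signal, gave -0.08 ± 0.32 on its brightest probe set and 1.18 and -0.14 on the others, and Socs3, its feedback inhibitor, 0.33 ± 0.55 on its brightest and 1.11 and 1.59 on the others. Acute phase genes, 15 tested, had a median of 0.20 with 4 higher (26.7%) and 2 lower (13.3%) without overlap, against 17.3% and 16% of all genes. The 14 tested genes of other secreted hepatocyte proteins had a median of 0.21, with 4 higher (28.6%) and 0 lower. The medians of the cascades thus lay close to that of other proteins secreted by hepatocytes. Interferon response genes, 10 tested, had a median of -0.66 with 0 higher and 4 lower (40%) without overlap, against 17.3% and 16% of all genes, and their median stood highest in GFP replicate 1, at 0.81 from the mean of the arrays.

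Markers of other cells were mostly dim. T and NK cell markers had 5 of 10 measured bright enough to test, with summed signals of 5587 and 6474 in GFP, and 4258 and 4370 in lipin. All 5 lay below 0, with a median of -1.17 and 3 (60%) lower without overlap, against 16% of all genes, and 0 passed the test (limma). B cell markers summed to 2703 and 3591 in GFP, and 3926 and 1606 in lipin. Of the 4 tested, with a median of -0.25, 0 were higher and 2 (50%) lower without overlap. Neutrophil markers summed to 7415 and 5203 in GFP, and 5136 and 3753 in lipin. The 5 tested had a median of -0.14, 0 higher and 1 (20%) lower. Endothelial markers, a source of coagulation receptors, summed to 21276 and 28793 in GFP, and 22964 and 29706 in lipin. The 8 tested had a median of 0.13, 2 (25%) higher and 0 lower. Stellate cell and fibroblast markers summed to 39064 and 54295 in GFP, and 20915 and 41106 in lipin. The 7 tested had a median of -0.64, 3 (42.9%) higher and 2 (28.6%) lower. The shares of all genes without overlap were 17.3% higher and 16% lower. Cholangiocyte and erythroid markers had 1 tested gene each. The part of these cells in the values above was not tested.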

How the data were processed

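The deposited values are linear intensity signals, 1 per probe set and array, made by the authors with MAS5 per the submitters' processing notes. No source used here gives its version or scaling target. After leaving out 64 control probe sets, signals under the 20th percentile (119.5) were raised to it and log2 was taken. The 13576 probe sets whose mean log2 signal reached the 40th percentile (373 on the linear scale) were fitted on group with limma 3.58.1 in R 4.3.3 (eBayes with an intensity trend, 12.7 prior and 2 residual degrees of freedom), two-sided, with Benjamini-Hochberg adjustment. The floor understates differences of dim genes. Of 22626 probe sets, 20380 had 1 symbol in the platform annotation, 691 several and 1555 none listed. An exact test of 2 arrays against 2 cannot go below p = 0.333. On simulated data the fit recovered 13.6% of 4-fold, 33.6% of 8-fold, 47.2% of 16-fold and 54.8% of 32-fold changes, and smaller ones were not simulated. The members and lists were chosen with earlier results of these data known. Every member is described, and other genes come from those lists, Hnf4a, Stat3, Socs3, Cd5l and Clec4f after their values were seen. Serping1 was counted with complement and Vtn with coagulation. Alternatives varied normalization, floor, filter, probe set choice, variance model, replicate block, threshold and the arrays entered. The number of arrays limits the precision.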

Additional observations from a re-analysis of the deposited data

How the results depend on the processing

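Under every alternative run, 0 members passed, also at a threshold of 0.1. The lowest adjusted p of a member (limma) was 0.114 without GFP replicate 1 and at or above 0.420 without each other array. Apart from leaving out an array, 34 of 38 members kept their sign. F5 was 0.051 as the mean of its probe sets, C8a 0.027 and F9 0.022 after median centring, and Hc -0.0005 and C8a 0.0016 after quantile normalization, which also moved the complement minus coagulation median to -0.015. Without each array in turn, 17 kept their sign, and the others ranged from -0.17 to 4.51 (C1qa), -0.20 to 0.89 (C1qb), -0.14 to 1.20 (C1qc), -0.58 to 0.77 (Mbl2), -1.16 to 2.18 (Masp1), -0.57 to 0.14 (C2), -0.19 to 0.22 (Hc), -0.79 to 0.78 (C8a), -0.11 to 1.42 (C8b), -0.46 to 0.88 (C9), -0.20 to 0.13 (Cfi), -0.20 to 0.076 (C4bp), -0.38 to 0.21 (Serping1), -0.20 to 0.18 (F9), -0.89 to 2.66 (F11), -0.48 to 0.011 (Klkb1), -0.40 to 0.87 (Kng1), -0.38 to 0.084 (F5), -0.19 to 0.49 (F7), -0.33 to 0.24 (Plg) and -0.39 to 0.63 (Vtn). Members without overlap keep their sign here by construction. The cascade medians ranged from 0.06 to 0.27 (complement) and -0.013 to 0.39 (coagulation), and their difference from -0.17 to 0.073. Members above 0 ranged from 20 to 32, complement from 10 to 14 and coagulation from 10 to 18. Members with every array labelled lipin above every GFP array ranged from 14 to 25, complement from 5 to 10 and coagulation from 9 to 15, since fewer arrays separate more easily. These last counts were chosen after seeing the data. The cause of the other moves was not tested. The labels link the arrays of the groups only by a number, and what else same-numbered arrays share is not stated. Deviations of same-numbered arrays correlated at 0.03 over 13576 probe sets and 0.68 over the members. With the replicate block, 0 members and 30 genes passed (lowest member adjusted p 0.122, limma).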
